A study of Homo sapiens with 6 samples.

Results

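Mitochondrial ribosomal proteins were represented by 78 protein-coding genes among the 62703 gene IDs of the deposited table, 49 with an MRPL symbol (large subunit) and 29 with an MRPS symbol (small subunit). The members were found by symbol, as MRPL or MRPS followed by a number and at most 1 letter. A further 88 of the 166 symbols that begin this way are pseudogenes, antisense or read-through genes and were left out. The cells were MNNG/HOS Cl #5, an established human osteosarcoma line of wild-type genotype, at day 7 after seeding. The 3D group of 3 libraries came from cells inside a scaffold of demineralised bone matrix, and the 2D group of 3 came from the same line in ordinary flat culture. Both groups shared a DMEM-based medium with L-glutamine, fetal bovine serum and antibiotics, and no drug is named for either. The labels do not say whether the libraries came from separate cultures, so the p-values below measure the spread between these libraries, which may be technical.

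The mitochondrial ribosome translates the few mRNAs of the mitochondrial genome, which encode core subunits of the respiratory chain and of ATP synthase. Its rRNAs are transcribed inside the organelle, whereas all of its proteins are encoded in the nucleus, made in the cytosol and imported. Part of the proteins have a counterpart in the bacterial ribosome, and the rest were gained in the mitochondrial lineage, where they surround a shortened rRNA.

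Genes of this family often have TATA-less promoters near CpG islands, so the bases upstream of their starts were read for the motifs known from nuclear genes of mitochondria. RefSeq promoters (GRCh38.p14) were found for 69 of the 78 genes, and 7 motifs were searched on both strands in the 250 bases before each start. The motifs were the ETS family motif CCGGAAG (bound by GABP among others), the NRF1 motif GCGCNTGCG, the YY1 motif AAGATGGCG, the SP family motif GGGCGGG and the E-box CACGTG. The TATA box was searched as TATAAA, and the binding motif of the factor NF-Y was searched as CCAAT. The NRF1 motif is nearly its own reverse complement, so 1 place can match on both strands, and the end of an ETS match can be the start of a YY1 match. CCGGAAG was in 23 of 69 member promoters (33.3%), against 11.8% of 15812 protein-coding promoters of the same length. The NRF1 motif was in 10 (14.5%, against 9.76%), the YY1 motif in 3 (4.35%, against 0.753%) and the SP motif in 33 (47.8%, against 42.9%). The E-box was in 6 (8.7%, against 7.83%), CCAAT in 19 (27.5%, against 34.4%) and TATAAA in 2 (2.9%, against 9.25%). CCGGAAG was in 10 of the 24 promoters of genes higher in 3D, 2 of the 4 of genes lower in 3D and 11 of the 38 of tested genes that passed in neither direction. A match describes the letters of a promoter and is not a measured binding site.

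Below are upstream stretches, 5′ to 3′ on the gene's own strand, of 4 genes that were higher in 3D and hold CCGGAAG, of the gene with the largest decrease, and of the gap between the starts of MRPL46 and MRPS11, which are transcribed away from each other. They were chosen after the values were seen, to show the motif in genes that moved. Capitals mark the ETS motif, or in MRPL17 2 overlapping NRF1 matches, and MRPL46 has neither in the stretch shown.
MRPL20, chr1:1407314-1407463, minus strand: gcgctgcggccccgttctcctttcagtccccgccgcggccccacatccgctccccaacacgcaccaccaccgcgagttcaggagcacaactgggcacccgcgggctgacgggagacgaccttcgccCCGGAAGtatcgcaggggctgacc
MRPL47, chr3:179604655-179604689, minus strand: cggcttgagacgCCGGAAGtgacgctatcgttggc
MRPL3, chr3:131502984-131503133, minus strand: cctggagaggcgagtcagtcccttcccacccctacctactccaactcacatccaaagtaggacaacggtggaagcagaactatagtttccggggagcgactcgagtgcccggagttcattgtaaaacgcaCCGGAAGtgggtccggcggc
MRPS10, chr6:42217866-42218015, minus strand: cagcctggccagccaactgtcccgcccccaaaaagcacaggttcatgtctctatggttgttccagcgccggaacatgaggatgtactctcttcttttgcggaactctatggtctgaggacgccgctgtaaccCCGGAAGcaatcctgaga
MRPL17, chr11:6683402-6683551, minus strand: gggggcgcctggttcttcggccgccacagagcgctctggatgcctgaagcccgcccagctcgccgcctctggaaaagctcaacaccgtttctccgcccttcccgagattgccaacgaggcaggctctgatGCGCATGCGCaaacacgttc
MRPL46, chr15:88467420-88467452, minus strand: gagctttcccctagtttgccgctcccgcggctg

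The 3D libraries held 13332512, 13747185 and 16361254 reads on genes and the 2D libraries 14096696, 13651906 and 14240057, worked out from the FPKM values. FPKM scales reads to gene length and library total. The members took 0.376 to 0.47% of these reads in 3D and 0.342 to 0.39% in 2D, and 77 of 78 were above 0 in every library. Of the osteoblast and osteosarcoma lineage markers, 7 of 10 reached 1 FPKM, with a summed level of 387 to 410 FPKM in 3D and 586 to 804 in 2D, most of it VIM, while ALPL, BGLAP and IBSP stayed under 1 FPKM. Haematopoietic markers summed to 4.2 to 6.52 FPKM in 3D and 17.9 to 25.6 in 2D, most of it CD68, with 3 of 6 reaching 1 FPKM, CD3E at 0 and PTPRC near 0. Epithelial markers summed to 80.7 to 98.5 FPKM in 3D and 42.6 to 57.1 in 2D, nearly all KRT8 and KRT18, with 3 of 4 reaching 1 FPKM and CDH1 near 0. Of the endothelial markers 0 of 4 reached 1 FPKM, and of the adipocyte markers 1 of 4 did, with ADIPOQ and LEP at 0. The part of these marker differences in the results below was not tested.

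The question put to the table was whether the large and the small subunit differed between 3D and 2D. A log2 change above 0 was found for 57 of 75 tested members (76.0%), against 60.2% of all tested genes. On the median-ratio scale described below these shares were 58.7% and 50.5%, and without 3D replicate 1 they were 61.3% and 59.9%. Past an adjusted p of 0.05 (limma, Benjamini-Hochberg over all 12843 tested genes), 15 of 49 MRPL genes were higher in 3D, 3 were lower and 31 passed in neither direction. Of 26 tested MRPS genes, 13 were higher, 1 was lower and 12 passed in neither direction. Among all tested genes 33.3% were called higher and 18.1% lower. On the deposited scale the MRPL share of 30.6% higher thus lay near the background and the MRPS share of 50.0% above it. The shares called lower, 6.12% of MRPL and 3.85% of MRPS genes, were both below the background. The libraries of the groups did not overlap, with 3D above, for 20 of 49 MRPL and 15 of 26 tested MRPS genes, against 39.0% of all tested genes. The MRPL share thus lay near that of all genes and the MRPS share above it. With 3D below there was no overlap for 3 MRPL and 2 MRPS genes, against 21.9% of all tested genes. In these bulk samples a change in the share of a kind of cell and a change in RNA per cell cannot be told apart.

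**Figure D1:**
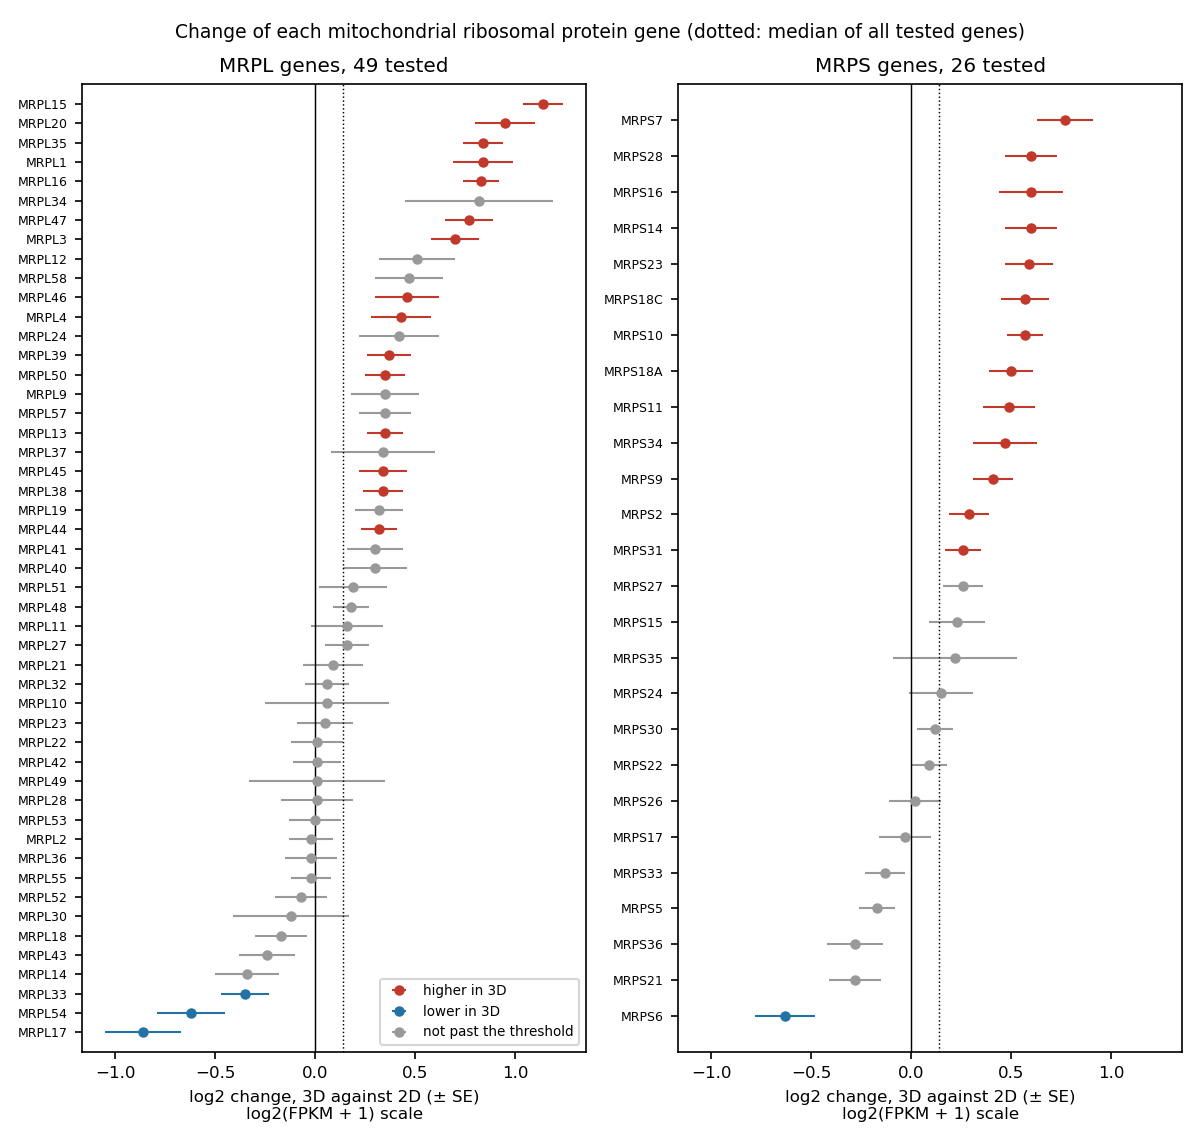
Log2 change (3D against 2D, log2(FPKM + 1) scale) of each tested MRPL and MRPS gene, with its standard error, over 3 libraries a group. The changes of MRPL genes ran from -0.86 to 1.14 and those of MRPS genes from -0.63 to 0.77, and genes past the threshold are coloured.

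The median log2 change was 0.30 over the MRPL genes and 0.26 over the MRPS genes, against 0.14 over all tested genes, so both subunits differed by small amounts. Scaling the libraries by median ratios took the median of all genes from 0.144 to 0.007 and the calls over all genes from 4272 higher and 2328 lower to 3148 and 3148. On that scale 7 of 49 MRPL genes were higher and 5 lower, and 7 of 26 tested MRPS genes were higher and 4 lower. Over all tested genes these were 3148 of 12843 in each direction. The MRPS share called higher then lay near that of all genes, and the MRPL share lay below it. The MRPL median then lay 0.12 above that of all genes, against 0.15 on the deposited scale, and the MRPS median 0.1 above it, against 0.12. Without 3D replicate 1 the MRPL median was only 0.03 above that of all genes, and without 2D replicate 3 it was 0.02 above. The MRPL median lay 0.17 above that of all genes without 3D replicate 3 and 0.27 above it without the filter on low values. The MRPS median lay 0.08 above that of all genes without 3D replicate 1, 0.19 above it without 3D replicate 3 and 0.22 above it without the filter on low values. The MRPL genes called lower numbered 1 without 3D replicate 3, without 2D replicate 1 or without 2D replicate 2, and the MRPS genes called lower numbered 3 without 3D replicate 1. MRPS18A and MRPS30 sit in the large subunit of the mammalian structure. With these moved there and all other members, MRPS36 included, left by symbol, 16 of 51 large and 12 of 24 tested small subunit genes were higher in 3D.

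The MRPL genes with the largest called increases were MRPL15, MRPL20, MRPL1, MRPL35 and MRPL16, all counterparts of bacterial proteins. MRPL15 (ENSG00000137547, chr8:54135210-54147901), counterpart of bacterial L15, measured 29.6, 27.5 and 24.8 FPKM in 3D replicates 1 to 3 and 12.9, 11.4 and 11.2 FPKM in 2D. Each 3D library was well above each 2D library, and the log2 change was 1.14 (SE 0.10, adjusted p by limma = 0.000384) with a ratio of mean FPKM of 2.31. MRPL20 (ENSG00000242485, chr1:1401908-1407313), counterpart of a protein needed early in assembly of the bacterial large subunit, measured 26.7, 21.1 and 18.6 FPKM in 3D and 12.2, 10.5 and 9.89 in 2D. The groups did not overlap, and the change was 0.95 on the log2 scale (SE 0.15, adjusted p = 0.00202). Its upstream stretch above carries CCGGAAG, and 15.5% of its exon bases lie under other genes in GENCODE 29. Some overlap of this kind was found for 41 of the 78 members.

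MRPL1 (chr4:77862520-77952790), counterpart of the protein of the L1 stalk that handles departing tRNA, measured 7.92, 7.61 and 5.47 FPKM in 3D and 3.61, 3.85 and 2.87 in 2D, a log2 change of 0.84 (SE 0.15, adjusted p = 0.00388). Its level in 3D replicate 3 was the lowest of the group but still above all of 2D. MRPL35 (chr2:86199355-86213794) measured 12.4, 10.2 and 11.1 FPKM in 3D and 5.93, 5.72 and 5.82 in 2D, and the 2D libraries were almost level (log2 change 0.84, SE 0.10, adjusted p = 0.000755). MRPL16 (chr11:59806135-59810872), whose bacterial counterpart lies near the site where aminoacyl-tRNA is bound, measured 15, 12.9 and 13.3 FPKM in 3D and 7.02, 7.37 and 7.36 in 2D. The groups were again apart, with a log2 change of 0.83 (SE 0.09, adjusted p = 0.000642). MRPL47 and MRPL3, with CCGGAAG in the stretches above, changed by 0.77 and 0.70 (adjusted p = 0.00214 and 0.00315). MRPL3 is the counterpart of a protein that reaches towards the peptidyl transferase centre. The calls of MRPL15, MRPL20, MRPL1, MRPL35, MRPL16, MRPL47 and MRPL3 held under all 14 alternative settings. The other called increases of MRPL genes ran from 0.32 for MRPL44 to 0.46 for MRPL46. All of these other calls ended with median-ratio and with upper-quartile scaling, and that of MRPL45 held under only 4 of the 14 settings.

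Among MRPS genes the largest called increases were smaller, between 0.59 and 0.77. MRPS7 (ENSG00000125445, chr17:75261674-75266373), counterpart of a protein that organises the head of the small subunit, measured 11.3, 9.06 and 7.46 FPKM in 3D and 5.19, 5.01 and 4.69 in 2D. The 3D libraries spread widely and all lay above 2D (log2 change 0.77, SE 0.14, adjusted p = 0.0041). MRPS28 (chr8:79918717-80030289) measured 12.7, 9.97 and 10.4 FPKM in 3D and 7.32, 7.46 and 6 in 2D (log2 change 0.60, SE 0.13, adjusted p = 0.00663). Another gene covers 35.8% of the exon bases of MRPS28 in GENCODE 29. MRPS14 (chr1:175010789-175023425), also a protein of the head, measured 7.48, 7.41 and 5.58 FPKM in 3D and 4.61, 3.84 and 3.99 in 2D (log2 change 0.60, SE 0.13, adjusted p = 0.00745). In both, the lowest 3D library was above the highest 2D library.

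MRPS16 (chr10:73248843-73252693), in which mutations cause a respiratory chain deficiency, measured 8.61, 7.81 and 5.41 FPKM in 3D and 4.05, 4.72 and 4.35 in 2D (log2 change 0.60, SE 0.16, adjusted p = 0.0168). It was the least steady of these: the adjusted p was 0.0563 without 3D replicate 2, 0.055 without 2D replicate 1, 0.05 with median-ratio scaling and 0.0553 without the filter on low values. MRPS23 (chr17:57834781-57850056), which has no bacterial counterpart, measured 9.65, 8.57 and 7.38 FPKM in 3D and 5.4, 4.86 and 5.67 in 2D (log2 change 0.59, SE 0.12, adjusted p = 0.0051). MRPS10, whose upstream stretch holds CCGGAAG, measured 45.3, 40.8 and 42.1 FPKM in 3D and 28.6, 26.7 and 30.1 in 2D. Its change of 0.57 (SE 0.09, adjusted p = 0.00233) rested on tight groups. Of the other 7 MRPS genes that rose, MRPS18C, MRPS18A, MRPS11, MRPS34, MRPS9, MRPS2 and MRPS31, the changes ran down to 0.26 for MRPS31. Among these, the call of MRPS31 held under 3 of the 14 alternative settings and those of MRPS2 and MRPS34 under 6 each, while those of MRPS18A and MRPS18C held under all that tested them.

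**Figure D2:**
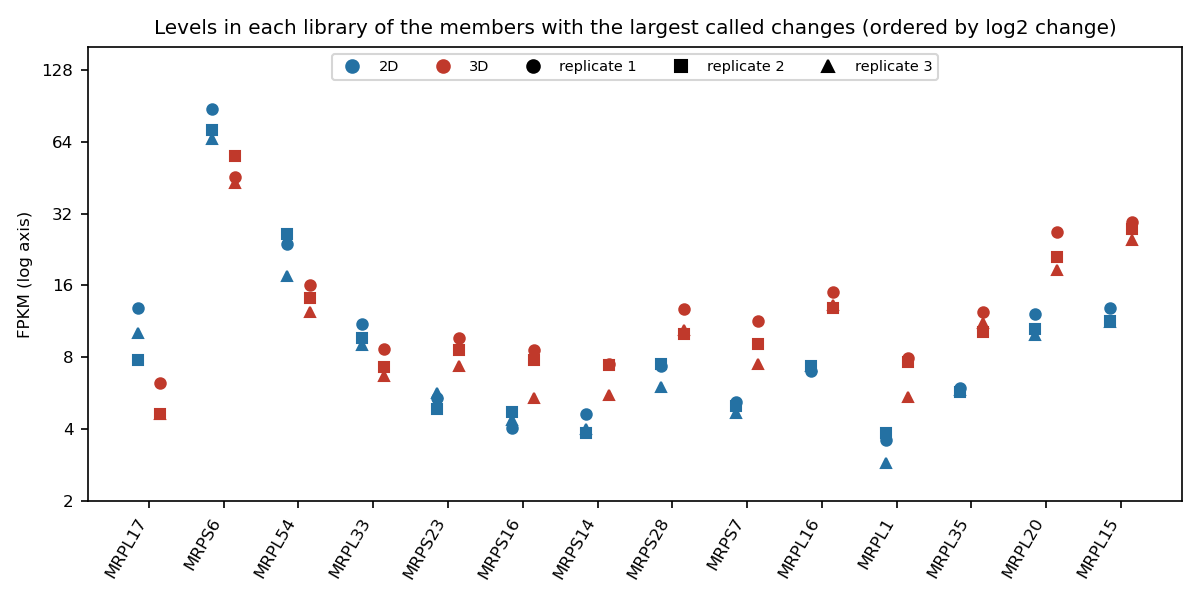
FPKM (log axis) in each of the 6 libraries for the 5 largest called increases of each subunit and the 4 called decreases, ordered by log2 change. Symbols give the replicate number, and in each of the 14 genes the 3D libraries lie on 1 side of the 2D libraries.

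The 4 genes lower in 3D were MRPL17, MRPL54, MRPL33 and MRPS6. MRPL17 (ENSG00000158042, chr11:6680782-6683401), counterpart of bacterial L17, measured 6.24, 4.63 and 4.64 FPKM in 3D and 12.9, 7.79 and 10.1 in 2D. The 2D libraries were uneven, yet all lay above 3D, and the gene fell by 0.86 on the log2 scale (SE 0.19, adjusted p = 0.00794). MRPS6 (ENSG00000243927, chr21:34073224-34143034), counterpart of a platform protein of the small subunit, was among the most abundant members, with 3900 to 7943 reads a library. It measured 45.6, 56.1 and 43.1 FPKM in 3D and 87.9, 71.6 and 66.1 in 2D and fell by 0.63 (SE 0.15, adjusted p = 0.0106). SLC5A3, an inositol transporter gene that shares its locus with MRPS6, had a log2 change of -0.17 (adjusted p = 0.624). The calls of MRPL17 and MRPS6 held under all 14 alternative settings.

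MRPL54 (chr19:3762664-3768575), which has no bacterial counterpart, measured 16.1, 14.2 and 12.4 FPKM in 3D and 23.9, 26.2 and 17.5 in 2D, a log2 change of -0.62 (SE 0.17, adjusted p = 0.0185). Its call was lost without 3D replicate 3 (adjusted p = 0.0604), without 2D replicate 1 (0.0599), without 2D replicate 2 (0.0606) and without the filter on low values (0.0609). MRPL33 (chr2:27771717-27988087), with 21.1% of its exon bases under another gene, measured 8.64, 7.3 and 6.67 FPKM in 3D and 11, 9.64 and 9.02 in 2D. Its log2 change was -0.35 (SE 0.12, adjusted p = 0.0438). Leaving out 3D replicate 2 (adjusted p = 0.118) or 3 (0.126), or 2D replicate 1 (0.126) or 2 (0.0901), ended the call, as did dropping the filter (0.1). MRPL34, with the largest change that was not called (0.82, SE 0.37, adjusted p = 0.108), measured 5.57, 11.6 and 10.6 FPKM in 3D and 3.57, 8.5 and 3.06 in 2D. Its groups overlapped, and without 2D replicate 2 the change was 1.2 (adjusted p = 0.0188). It also passed with the replicate block described below.

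The members were also divided by origin. Of 45 tested genes with a counterpart, 18 were higher and 3 lower, with a median change of 0.29, and of 30 other tested genes, 10 were higher and 1 lower, with a median of 0.26. MRPS18A counts among the others, since it derives from a bacterial protein but no longer sits at the bacterial site. Within the large subunit 9 of 30 genes with a counterpart and 6 of 19 others were higher. Within the small subunit these were 9 of 15 and 4 of 11. No test of these differences was run, and each share can be read only against the 33.3% of all tested genes.

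MRPS18A, MRPS18B and MRPS18C descend from 1 bacterial gene, S18, and occupy different places: MRPS18C takes the bacterial site, MRPS18B lies elsewhere in the small subunit and MRPS18A in the large subunit. MRPS18A (chr6:43671303-43687791) measured 23.1, 20.3 and 19.4 FPKM in 3D and 15.5, 14.9 and 13 in 2D (log2 change 0.50, SE 0.11, adjusted p = 0.00733). MRPS18C (chr4:83455932-83469735) measured 4.03, 3.21 and 3.32 FPKM in 3D and 2.42, 1.94 and 1.8 in 2D (log2 change 0.57, SE 0.12, adjusted p = 0.00656). Both were higher in every 3D library than in any 2D library, with ratios of mean FPKM of 1.45 and 1.71. Other genes cover 47.0% of the exon bases of MRPS18A (RSPH9) and 40.2% of those of MRPS18C, and since the use of strand in counting is not given, such reads cannot be told apart. MRPS18B (chr6:30617709-30626395) was listed at 0 in all 6 libraries. So were 10 of the 15 protein-coding genes within 250 kb, MRPS18B included, among them TUBB, ABCF1, DHX16 and PPP1R10, against 16.8% of all protein-coding genes. The rest of the 15, HLA-E, GNL1, PRR3, FLOT1 and IER3, reached at most 0.1 FPKM in any library. TUBB encodes a tubulin that dividing cells use widely, so of MRPS18B it can be said only that it is listed at 0.

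MRPL12, whose protein forms the flexible stalk that recruits translation factors, measured 164.3, 117.2 and 107.7 FPKM in 3D and 96.8, 98.3 and 74.3 in 2D. The groups did not overlap, yet the change of 0.51 (SE 0.19, adjusted p = 0.0556) missed the threshold. It passed without 3D replicate 3 (0.63, adjusted p = 0.0447), and also with a minimum of 5 FPKM, over protein-coding genes alone, with the replicate block and with voom. Another gene covers 68.2% of its exon bases in GENCODE 29 and it was the only member with most of its exon bases covered. MRPL58, a subunit that also carries peptidyl-tRNA hydrolase activity and rescues stalled ribosomes, measured 25.3, 19 and 17.8 FPKM in 3D and 17.7, 13.6 and 12.6 in 2D. The highest 2D library almost reached the lowest 3D library (0.47, SE 0.17, adjusted p = 0.0526), and without 2D replicate 1 the change was 0.61 (adjusted p = 0.0282). MRPL58 also passed with a minimum of 5 FPKM, over protein-coding genes alone and with the replicate block. MRPS30, a large subunit protein despite its symbol, measured 15.5, 15.9 and 15.8 FPKM in 3D and 12.9, 15.3 and 15.1 in 2D (0.12, SE 0.09, adjusted p = 0.321). Its 3D libraries were nearly level, and only 2D replicate 1 stood clearly lower.

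Levels differed far more between members than between conditions. On the deposited FPKM scale, the highest MRPL means over the 6 libraries were those of MRPL41 (117.9), MRPL12 (109.8) and MRPL14 (71.4), and the highest MRPS means those of MRPS21 (81.7), MRPS6 (61.7) and MRPS26 (38.1). MRPL41 measured 149.7, 129.5 and 112.3 FPKM in 3D and 118.5, 101.5 and 95.9 in 2D (adjusted p = 0.106), a range that overlaps the 74.3 to 164.3 FPKM of MRPL12, its neighbour in this order. Per kilobase of GENCODE 29 exons the means were 54.4 for MRPL41 and 107.7 for MRPL12, so their order depends on the lengths used. MRPL14 measured 71.4, 59.4 and 56.8 FPKM in 3D and 95, 81.6 and 63.9 in 2D (log2 change -0.34, adjusted p = 0.122). It passed as lower without 2D replicate 3 (-0.49, adjusted p = 0.0288), with median-ratio (-0.52, 0.0421) or upper-quartile scaling (-0.5, 0.0425) and with the replicate block. MRPS21 measured 83.1, 74.8 and 63.7 FPKM in 3D and 97.3, 89.7 and 81.9 in 2D (-0.28, adjusted p = 0.103). It passed as lower without 3D replicate 1 (-0.37, adjusted p = 0.0493), with median-ratio (-0.46, 0.0236) or upper-quartile scaling (-0.44, 0.0245) and with the replicate block. MRPS26 measured 41.2, 41.2 and 33 FPKM in 3D and 42, 36.9 and 34.3 in 2D, with no difference past the threshold (0.02, SE 0.13, adjusted p = 0.893).

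The lowest tested means were those of MRPL55 (1.15 FPKM), MRPL46 (1.91) and MRPL49 among MRPL genes and MRPS27 (1.09), MRPS22 (1.19) and MRPS33 (1.94) among MRPS genes. The gene lengths behind the values bear on this order. The lengths that turn the FPKM values into whole reads were 0.461 to 11.7 times the exon lengths of GENCODE 29 (median 1.63), and 5 members had lengths over 20000 bases: MRPS25 with 63065, MRPS27 with 44057, MRPS22 with 33806, MRPS5 with 28778 and MRPL42 with 21240. Per kilobase of GENCODE 29 exons, the order of the members was largely kept (rank correlation 0.93 over 77 members, a description in which both scales share the reads). MRPL41 went from rank 1 to 8, MRPS6 from 5 to 2 and MRPS22 from 73 to 60. A length is the same in all libraries of a gene, so it leaves the ratio of 3D to 2D as it is, although it decides what passes a filter on FPKM. A longer length lowers FPKM, however, and so shrinks the change on the log2(FPKM + 1) scale. MRPS27 had a ratio of mean FPKM of 1.42 and a log2 change of 0.26. The order of genes can differ too: MRPS18C had a ratio of 1.71 and a change of 0.57, and MRPS28 1.6 and 0.60.

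**Figure D3:**
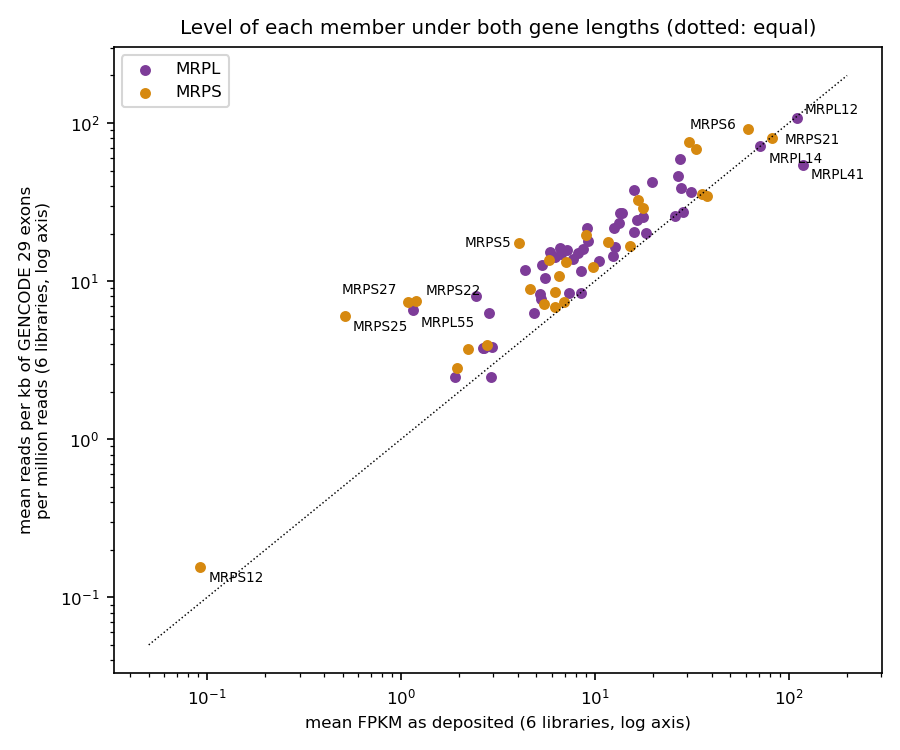
Mean FPKM as deposited (horizontal, log axis) against mean reads per kilobase of GENCODE 29 exons, scaled to the library total (vertical, log axis) for the 77 members above 0, each over 6 libraries. Most points lie above the dotted line of equality, and MRPS25, MRPS27, MRPS22, MRPL55 and MRPS5 lie farthest above it.

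Besides MRPS18B, the genes MRPS12 and MRPS25 were not tested, since neither reached 1 FPKM in 3 libraries. MRPS25 (chr3:15042460-15065335) measured 0.57, 0.602 and 0.603 FPKM in 3D and 0.631, 0.351 and 0.319 in 2D, but these were 287 to 624 reads a library over the long length above, so its reads were as many as those of called members. The groups overlapped, with 2D replicate 1 the highest of all. MRPS12 (chr19:38930548-38933162), counterpart of the decoding site protein S12, had 2 to 9 reads a library, or 0.039 to 0.151 FPKM. SARS2, its neighbour on the opposite strand and the mitochondrial seryl-tRNA synthetase, measured 0.0196 to 0.123 FPKM. The values of MRPS12 are given without a comparison.

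The members had a library pattern in common. 3D replicate 1 was the highest 3D library for 65 of 75 tested members (86.7%), against 42.9% of all tested genes. 2D replicate 3 was the lowest 2D library for 44 of 75, against 31.6% of all tested genes. The median difference from the 2D mean over MRPL genes was 0.36, 0.23 and 0.1 (log2) in the 3D libraries and 0.12, -0.02 and -0.1 in the 2D libraries, so 2D replicate 1 lay above 3D replicate 3. Over MRPS genes it was 0.5, 0.18 and 0.21 in 3D and 0.06, 0.01 and -0.06 in 2D, with no overlap. Over all tested genes the medians were level within a group, at 0.15, 0.14 and 0.13 in 3D and 0, -0.02 and 0.02 in 2D.

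**Figure D4:**
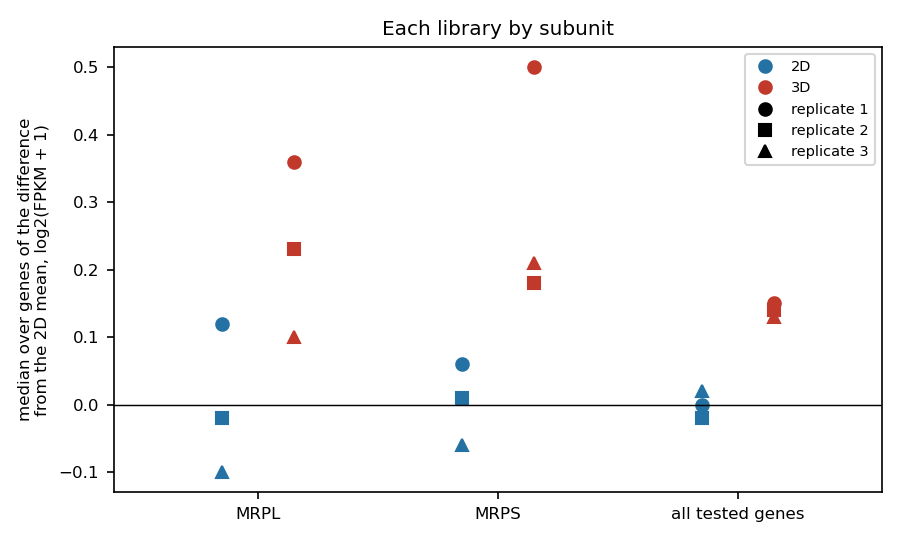
Median over tested genes of the difference from the 2D mean on the log2(FPKM + 1) scale, for each library, for MRPL genes, MRPS genes and all tested genes. The 3D and 2D libraries overlap for MRPL genes and do not for MRPS genes, and 3D replicate 1 is highest for both subunits.

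Most members have short mRNAs: the median length of the principal transcript was 1430 bases for 68 tested members, against 2970 bases for 7140 tested protein-coding genes. Across genes, longer transcripts had slightly higher changes, with a Spearman correlation of 0.14 over the members and 0.17 over the protein-coding genes, given as descriptions since the genes share libraries. The 23 shortest members (518 to 1086 bases) had a median change of 0.16, against -0.11 for the 571 protein-coding genes in that range. The 23 longest (1652 to 5621 bases) had a median of 0.32, against 0.18 for 4555 genes. The part of transcript length in the results was not tested.

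Many members start close to a gene on the opposite strand. For 29 of 78 members (37.2%) a protein-coding gene on the other strand started within 1000 bases, against 13.0% of 19864 protein-coding genes. Both genes were tested in 19 of these cases, and in 5 (26.3%) both were called in the same direction and in 0 in opposite directions, counting MRPL46 and MRPS11 from both sides. Over the 1384 tested protein-coding genes with a tested neighbour of this kind, the shares were 20.7% and 8.09%, so the same-direction share of the members lay near the background. MRPL46 and MRPS11, 1 gene of each subunit, start 34 bases apart on chromosome 15, on either side of the stretch printed above. MRPL46 measured 2.98, 2.21 and 1.95 FPKM in 3D and 1.86, 1.37 and 1.12 in 2D (log2 change 0.46, SE 0.16, adjusted p = 0.0415). MRPS11 measured 3.38, 2.56 and 2.4 FPKM in 3D and 1.97, 1.68 and 1.39 in 2D (0.49, SE 0.13, adjusted p = 0.019). In both, 3D replicate 1 was the highest library and 2D replicate 3 the lowest. Leaving out 3D replicate 1 (adjusted p = 0.104) or 2 (0.0755), or 2D replicate 2 (0.102) or 3 (0.117), ended the call of MRPL46, as did median-ratio (0.107) and upper-quartile scaling (0.0952) and no filter (0.109). That of MRPS11 ended on leaving out 2D replicate 2 (adjusted p = 0.051) or 3 (0.0563), with median-ratio scaling (0.0575) and with no filter (0.0553). The other pairs called together were MRPL13 with MTBP, MRPL50 with ZNF189 and MRPS18C with HELQ, all higher in 3D. The calls of MRPL13 and MRPL50 ended with median-ratio and upper-quartile scaling, among other settings. The starts of MRPL41 and PNPLA7 lie 665 bases apart, and PNPLA7 fell by 0.91 (adjusted p = 0.000576) while MRPL41 passed in neither direction. MRPL49 and FAU, a gene for a cytosolic ribosomal protein, overlap at their starts, and FAU fell by 0.76 (adjusted p = 0.00798) against 0.01 for MRPL49 (adjusted p = 0.981).

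Of the 5 mitoribosome subunits with another symbol, DAP3 and PTCD3, both of the small subunit, were higher in 3D (40.0%, against 33.3% of all tested genes). DAP3 measured 6.63, 4.49 and 4.68 FPKM in 3D and 3.18, 3.03 and 3.37 in 2D (log2 change 0.56, adjusted p = 0.0134). PTCD3 changed by 0.34 (adjusted p = 0.0115), and it did not pass on the median-ratio (adjusted p = 0.0998) or upper-quartile scale (0.0774). CHCHD1, AURKAIP1 and GADD45GIP1 had changes of -0.15, -0.06 and 0.02 and passed in neither direction, although CHCHD1 passed as lower with median-ratio (-0.32, adjusted p = 0.0302) and upper-quartile scaling (-0.3, 0.0332). The groups of DAP3 were apart, with 3D replicate 1 the highest.

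Of the factors that build the mitoribosome or modify its rRNA, 16 of 27 tested genes (59.3%, against 33.3% of all tested genes) were higher in 3D. Only METTL15 was lower (3.7%, against 18.1%), and the median change was 0.40. The shares of this list and of the other lists set beside the members were counted on the deposited scale alone. DDX28, a helicase of large subunit assembly, measured 13.4, 11.7 and 11.6 FPKM in 3D and 4.18, 4.88 and 3.63 in 2D (log2 change 1.34, adjusted p = 0.000354). FASTKD2, an rRNA-binding assembly factor, and MTG1, a GTPase of large subunit maturation, changed by 0.86 and 1.00 (adjusted p = 0.000461 and 0.000794). Of 16 translation factors, 9 were higher (56.2%, against 33.3% of all tested genes), with a median of 0.40. A single one, MTIF3, was lower (-0.46, adjusted p = 0.0215). The call of MTIF3 ended on leaving out 3D replicate 1 (0.0571) or 2D replicate 1 (0.0656) or 2 (0.0597), and with no filter (0.0592). GFM1, the elongation factor that moves the ribosome along the mRNA, measured 6.24, 4.8 and 5.48 FPKM in 3D and 1.16, 1.38 and 1.15 in 2D (log2 change 1.54, adjusted p = 0.000267). GUF1 and MTRF1L, a back-translocating factor and a release factor, changed by 1.05 and 0.72 (adjusted p = 0.000616 and 0.000709). TUFM, which delivers aminoacyl-tRNA, averaged 92.5 FPKM (SD 12.6) in 3D and 54.8 (SD 2.94) in 2D, a change of 0.74 (adjusted p = 0.00242).

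**Figure D5:**
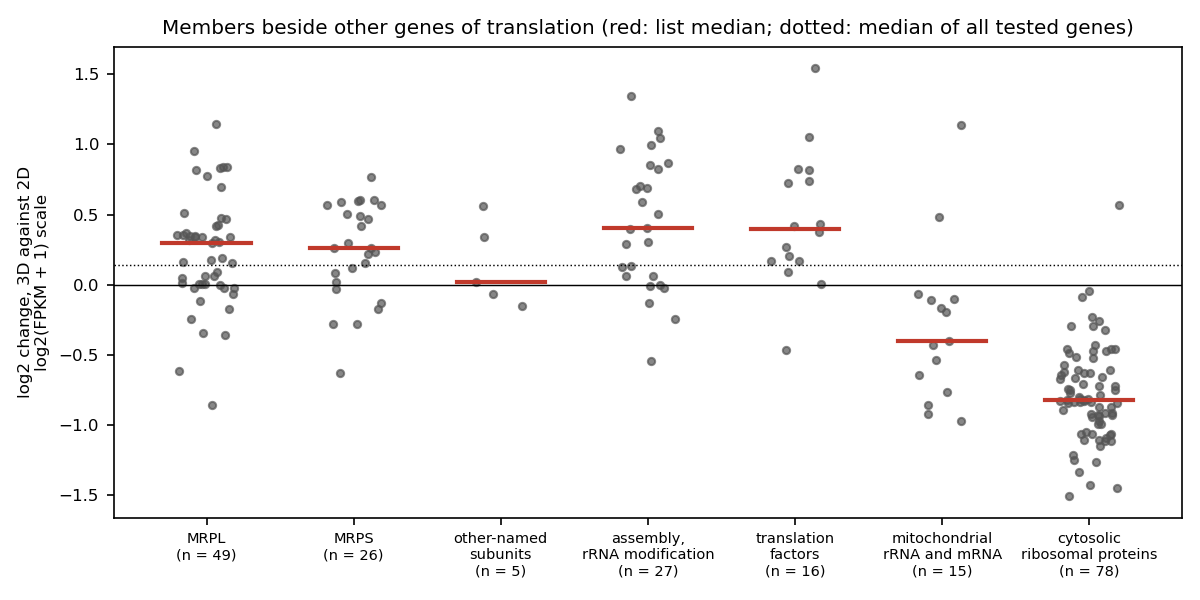
Log2 change (3D against 2D, log2(FPKM + 1) scale) of each tested gene in 7 lists, with the list median as a red bar and the median of all tested genes, 0.14, dotted. The medians are 0.30 for MRPL, 0.26 for MRPS, 0.40 for assembly and for translation factors, -0.40 for the rRNA and mRNA of the mitochondrial genome and -0.82 for cytosolic ribosomal proteins.

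Of 7 tested nuclear regulators known for genes of mitochondria, 3 were higher in 3D (42.9%, against 33.3% of all tested genes) and 0 were lower. PPRC1, a coactivator related to PGC-1, measured 16.8, 15.7 and 14.2 FPKM in 3D and 3.95, 4.54 and 4.36 in 2D (log2 change 1.65, adjusted p = 0.000199). PPARGC1B, of the same family, averaged 2.14 FPKM (SD 0.285) in 3D and 0.534 (SD 0.169) in 2D. At these low levels the size depends on the pseudocount, with a change of 1.04 at a pseudocount of 1 (adjusted p = 0.000729) and 1.85 at 0.1 (0.00125). GABPB1, a subunit of the ETS factor GABP, changed by 0.36 (adjusted p = 0.0176), which did not pass with median-ratio scaling (0.23, adjusted p = 0.0742) or upper-quartile scaling (0.0678), nor on leaving out 3D replicate 2 (0.0599) or 3 (0.055), or 2D replicate 2 (0.0624). NRF1, GABPA, ESRRA and YY1 changed by 0.16, 0.17, 0.27 and -0.13 and passed in neither direction (adjusted p = 0.263, 0.214, 0.074 and 0.292). MYC and PPARGC1A were under the filter, and MYC measured 1, 0.717 and 0.0979 FPKM in 3D and 0.389, 0.574 and 0.681 in 2D.

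The rRNAs that these ribosomes contain and the mRNAs they translate are made from the mitochondrial genome. Of 15 such transcripts, MT-ND1 and MT-ND6 were higher in 3D (13.3%, against 33.3% of all tested genes). A further 8 were lower (53.3%, against 18.1%), and the median was -0.40. MT-ND1 did not pass with median-ratio (0.3, adjusted p = 0.0895) or upper-quartile scaling (0.32, 0.0638). The small subunit rRNA MT-RNR1 measured 1527.7, 1333.8 and 1383.1 FPKM in 3D and 1842.8, 2266.9 and 1641.8 in 2D (log2 change -0.43, adjusted p = 0.0397). The large subunit rRNA MT-RNR2 measured 6675.0, 5619.5 and 6006.4 FPKM in 3D and 9196.7, 9607.2 and 7776.6 in 2D (-0.54, adjusted p = 0.0111). The call of MT-RNR1 ended on leaving out any of the 6 libraries but 2D replicate 3 (adjusted p = 0.0518, 0.13 and 0.105 without 3D replicates 1, 2 and 3, and 0.0737 and 0.116 without 2D replicates 1 and 2), and with no filter (0.0915). That of MT-RNR2 ended without 3D replicate 2 (0.0554). Both were lower in every 3D library than in any 2D library, in libraries that were enriched for poly(A) RNA before sequencing. The mRNAs with the smallest adjusted p were MT-ND3, MT-CO2 and MT-ND5, with changes of -0.92, -0.97 and -0.85 (adjusted p = 0.00108, 0.00121 and 0.00135). Cytosolic ribosomal proteins, the counterparts of the members in the cytosol, were lower in 3D for 67 of 78 tested genes (85.9%, against 18.1% of all tested genes). They were higher for 1 (1.28%, against 33.3%), with a median of -0.82. RPL29, RPS27 and RPL37 had the smallest adjusted p with changes of -1.21, -1.42 and -1.33 (adjusted p = 0.000313, 0.00036 and 0.000484).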

How the data were processed

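RNA of 6 libraries, 3 from 3D and 3 from 2D culture at day 7, was extracted with TRIzol and enriched for poly(A), per the labels' protocols. A single FPKM table of 62703 Ensembl gene IDs was deposited. The submitters' processing notes list HISAT2, StringTie, edgeR, FastQC and fastp with the build GRCh38 but give no version or role. The sources used here give neither the annotation release nor the counting settings nor the use of strand, so reads of overlapping genes, antisense genes and near-identical copies may be divided in ways that cannot be seen.

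FPKM values were transformed as log2(FPKM + 1), which understates the change of low genes. Genes with at least 1 FPKM in at least 3 libraries (12843) were compared in R 4.3.3 by limma 3.58.1 with statmod 1.5.0 (eBayes, trended and robust), without covariates, 2-sided, with Benjamini-Hochberg adjustment over all of them and a threshold of 0.05. With 3 libraries a group, exact permutation could give no p under 0.1. The members and lists were chosen with earlier results of these data known. Named members are, for each subunit, the 5 largest called increases and decreases without overlap, the 3 highest and 3 lowest means, all called decreases, the untested members and MRPS18A, MRPS18B, MRPS18C, MRPS30, MRPL12, MRPS28 and MRPL58. Of each other list these are the 3 smallest adjusted p, with GFM1, TUFM, MYC and NRF1. The other tested regulators, ESRRA, GABPA and YY1, were added after their values were seen. MRPL3, MRPL34, MRPL47, MRPS10, the genes beside MRPS18B, the opposite-strand neighbours and the library pattern were singled out after their values were seen.

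Symbols came from a name table (42300 of the IDs had one), and classes, positions and exon lengths from GENCODE 29 (58279 of the IDs). Reads were worked out by finding, for each gene above 0, a length at which the values of all libraries came out whole (to 0.01 reads). This succeeded for 33238 of 33243 genes, of which 11450 took the GENCODE 29 exon length. The replicates of a group differed by more than sampling noise. The alternatives were other pseudocounts, filters and scalings, protein-coding genes alone, a replicate block, limma's voom on the worked-out reads and leaving out each library.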

Additional observations from a re-analysis of the deposited data

How the results depend on the processing

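Of the 32 members called in either direction, 16 kept their call under all alternatives that tested them (14 higher and 2 lower), and no called member changed direction. Median-ratio scaling lost 14 calls, no filter on low values and upper-quartile scaling 12 each, the replicate block 3, voom 2, and leaving out 1 library 7 to 12. MRPL genes higher and lower in 3D numbered 7 and 5 with median-ratio scaling (median change 0.123) and 7 and 4 with upper-quartile scaling (0.141), and 10 and 1 without a filter. MRPS genes higher and lower numbered 7 and 4 with median-ratio scaling, 9 and 4 with upper-quartile scaling and 8 and 1 without a filter. Without a filter 33243 genes were tested in all, of which 4458 were higher and 2274 lower. Leaving out 1 library gave 10 to 14 MRPL and 9 to 11 MRPS genes higher, and 1 to 4 MRPL and 1 to 3 MRPS genes lower. Over all 12843 tested genes 3475 to 4065 were then higher and 1947 to 2182 lower. The median of all tested genes was 0.187 with a pseudocount of 0.1, 0.025 without a filter, 0.158 with a minimum of 5 FPKM, 0.007 and 0.021 with median-ratio and upper-quartile scaling, 0.155 over protein-coding genes alone, 0.19 with voom and 0.129 to 0.161 with 1 library left out. With that minimum 2134 genes were higher and 1319 lower, out of fewer tested. Upper-quartile scaling called 3255 higher and 3061 lower. The cause of the other changes was not tested.

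Same-numbered libraries of the groups deviated together with correlations of 0.084, -0.017 and 0.184, so the numbers were not taken as pairs. The replicate block gave 21 of 49 MRPL genes higher and 4 lower, and 12 of 26 tested MRPS genes higher and 2 lower. Over all 12843 tested genes the block gave 4291 higher and 2382 lower.

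Of the 43 tested members that were not called, 21 changed sign under at least 1 setting and 0 of them passed the threshold there, and 14 uncalled members passed under some setting in their own direction. Members above 0 numbered 57 of 75 on the deposited scale, 44 with median-ratio and 46 with upper-quartile scaling and 46 to 64 with 1 library left out. The named members among those that changed sign were 5. With median-ratio and upper-quartile scaling these were MRPL49 (-0.11 and -0.1), MRPS22 (-0.01 and -0.0032), MRPS26 (-0.15 and -0.14) and MRPS30 (-0.05 and -0.03). With 1 library left out, MRPL49 ran from -0.41 to 0.25, MRPL55 from -0.08 to 0.03 and MRPS26 from -0.04 to 0.13. Members with few reads, such as MRPS12, could not be compared at this depth.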
